A study of Mus musculus with 16 samples.

Results

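The genes described are 10 genes of fatty acid synthesis and desaturation, chosen by symbol: Fasn, Acaca, Acly, Scd1, Scd2, Srebf1, Elovl6, Acsl3, Acss2 and Me1. All 10 were found among the 24421 genes of the raw count table, and all 10 were among the 11978 genes with enough counts to test. They were measured by bulk RNA sequencing in conventional type 1 dendritic cells (cDC1s), which present antigen to CD8 T cells, sorted from the spleens of C57BL6 mice at steady state, in a study of LXR signaling during dendritic cell maturation without infection. The 4 groups, with 4 libraries each, were mature cDC1s from Xbp1flIre1fl mice, immature cDC1s from Xbp1flIre1fl mice, mature cDC1s from Xbp1fl mice and immature cDC1s from Xbp1fl mice. All mice carried a floxed Xbp1 allele, and those called Xbp1flIre1fl also a floxed allele of the IRE1 gene. Neither gene had been deleted, and the submitters treat both genotypes as wild type in function. The age of the mice, the sort gates and whether mice were pooled are not given in the sources used here. The libraries held 13948232 to 17000763 counts, so that 3 counts corresponded to 0.176 to 0.215 per 1e6 counts before TMM scaling. The CPM values given here are counts per 1e6 of the library size after TMM scaling. The cells carried cDC1 markers in both stages, with Xcr1 at 434 to 709 CPM in mature and 667 to 827 CPM in immature cells. At an adjusted p under 0.05, 2 of 10 cDC1 markers were higher, 6 lower and 2 not called in mature cells. Over all tested genes 33.4% were higher and 34.2% lower. Tlr3 averaged 117 CPM in mature and 239 CPM in immature cells, and Cd8a 793.5 and 621 CPM. The maturation marker Ccr7, a chemokine receptor, was at 4988 to 13420 CPM in mature against 107 to 320 CPM in immature cells.

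Fatty acids are built in the cytosol from acetyl-CoA, which ATP citrate lyase (Acly) makes from exported citrate and Acss2 from free acetate. Acetyl-CoA carboxylase (Acaca) turns it into malonyl-CoA, fatty acid synthase (Fasn) joins these units into palmitate with NADPH, to which malic enzyme (Me1) contributes, and Elovl6, Scd1 and Scd2 then lengthen the chain and place a double bond. SREBP-1c, encoded by Srebf1, drives most of these genes, and the liver X receptors (LXRs) are known to raise Srebf1, Fasn and Scd1 in liver and macrophages, beside the genes of cholesterol efflux.

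Promoter windows of RefSeq (GRCm38.p6), from 250 bases before to 50 after an annotated start, were matched for 8 of the 10 genes, with 11 windows in all. Those shown are the windows that hold the spaced pair described below and the upstream window of Me1, the gene that differed most between the stages. Other windows, also those of Acly, Acss2 and Elovl6 that hold other motifs, are not shown. Both strands were searched for the CCAAT box, the GC box GGGCGG, the E box CACGTG, the core TCACNCCA of a sterol regulatory element, the nuclear receptor core AGGTCA, and GGTTA followed after 5 bases by GGTCA. This spaced pair forms the letters of the known LXR response elements of mouse Srebf1 and Fasn, and it was added after the Srebf1 window had been seen. Capitals mark every match, the spacer of the pair included, and adjoining capitals are overlapping or neighbouring matches.
Fasn, chr11:120824498-120824797, minus strand: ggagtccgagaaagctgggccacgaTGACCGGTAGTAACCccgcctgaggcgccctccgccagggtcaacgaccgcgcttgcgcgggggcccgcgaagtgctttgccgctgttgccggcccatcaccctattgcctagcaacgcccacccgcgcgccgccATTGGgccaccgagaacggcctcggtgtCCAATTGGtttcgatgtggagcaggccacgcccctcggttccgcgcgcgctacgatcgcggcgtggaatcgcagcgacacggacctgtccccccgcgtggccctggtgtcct
Srebf1, window of the most downstream start, chr11:60210422-60210721, minus strand: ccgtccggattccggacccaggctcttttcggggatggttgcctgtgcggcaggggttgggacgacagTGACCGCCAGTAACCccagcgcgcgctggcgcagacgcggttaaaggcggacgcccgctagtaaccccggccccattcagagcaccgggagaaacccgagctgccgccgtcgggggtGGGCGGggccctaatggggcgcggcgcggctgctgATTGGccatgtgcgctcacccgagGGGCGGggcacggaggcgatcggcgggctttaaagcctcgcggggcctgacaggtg
Acsl3, chr1:78657575-78657874, plus strand: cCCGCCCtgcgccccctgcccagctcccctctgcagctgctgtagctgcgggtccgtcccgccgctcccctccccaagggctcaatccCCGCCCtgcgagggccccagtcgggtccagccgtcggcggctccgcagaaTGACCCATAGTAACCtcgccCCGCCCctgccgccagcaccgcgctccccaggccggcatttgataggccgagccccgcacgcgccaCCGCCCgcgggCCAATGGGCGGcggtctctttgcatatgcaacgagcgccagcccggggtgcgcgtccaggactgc
Me1, upstream start, chr9:86695865-86696164, minus strand: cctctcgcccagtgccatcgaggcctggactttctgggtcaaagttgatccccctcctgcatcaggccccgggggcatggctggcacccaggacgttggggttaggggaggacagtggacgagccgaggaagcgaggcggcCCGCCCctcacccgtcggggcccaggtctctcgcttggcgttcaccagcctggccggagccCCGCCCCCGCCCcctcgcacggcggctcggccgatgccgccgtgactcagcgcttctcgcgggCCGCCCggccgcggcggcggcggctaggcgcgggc

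The spaced pair stood in 3 of the 11 windows, those of Fasn (first base at −225 from the start), Srebf1 (−182) and Acsl3 (−112). In all 32851 windows of the table it occurred in 16 (0.0487%). Since the pattern was that of the known Fasn and Srebf1 elements, their matches were given in advance. The share among the 11 windows is therefore no measure of enrichment. CCAAT was found in 7 of the 11 windows, those of 6 genes, against 37.4% of all windows, and the Fasn window held it 3 times between −90 and −59, where the capitals CCAATTGG are a match on each strand. The GC box was found in 6 of the 11 windows, those of 5 genes, against 35.7% of all windows, and the Me1 window held it 4 times between −109 and 15. AGGTCA was found in 2 of the 11, those of Acly and Elovl6 (16.3% of all windows). CACGTG (7.15% of all windows) and TCACNCCA (4.36%) were in none of the 11. The 3 genes with the spaced pair did not share a direction between the stages, as given below: Fasn fell, and Srebf1 and Acsl3 did not pass the test.

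Of the 10 genes, 2 were higher in mature cells (Scd1 and Me1), 5 were lower (Fasn, Acaca, Acly, Scd2 and Elovl6) and 3 did not pass the test (Srebf1, Acsl3 and Acss2) at an adjusted p under 0.05. Over all tested genes 67.6% passed, 33.4% as higher and 34.2% as lower, so passing was common. The median log2 fold change was −0.13 over the 10 genes and −0.01 over all 11978. All 8 mature libraries lay above all 8 immature ones for 2 genes (Scd1 and Me1; 18% of all genes) and below them for 2 (Fasn and Elovl6; 15% of all genes), where 33% of all genes were parted in this way. Scaling by upper quartiles or by library sizes alone shifted the median of all genes to −0.13 and −0.23, and either scaling made Srebf1 a 6th gene called lower. Of all called genes, 49.4% were higher with TMM scaling, 38% with upper quartiles and 30.8% with library sizes alone. In bulk RNA, fewer cells of a type and less RNA per cell cannot be told apart.

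**Figure D1:**
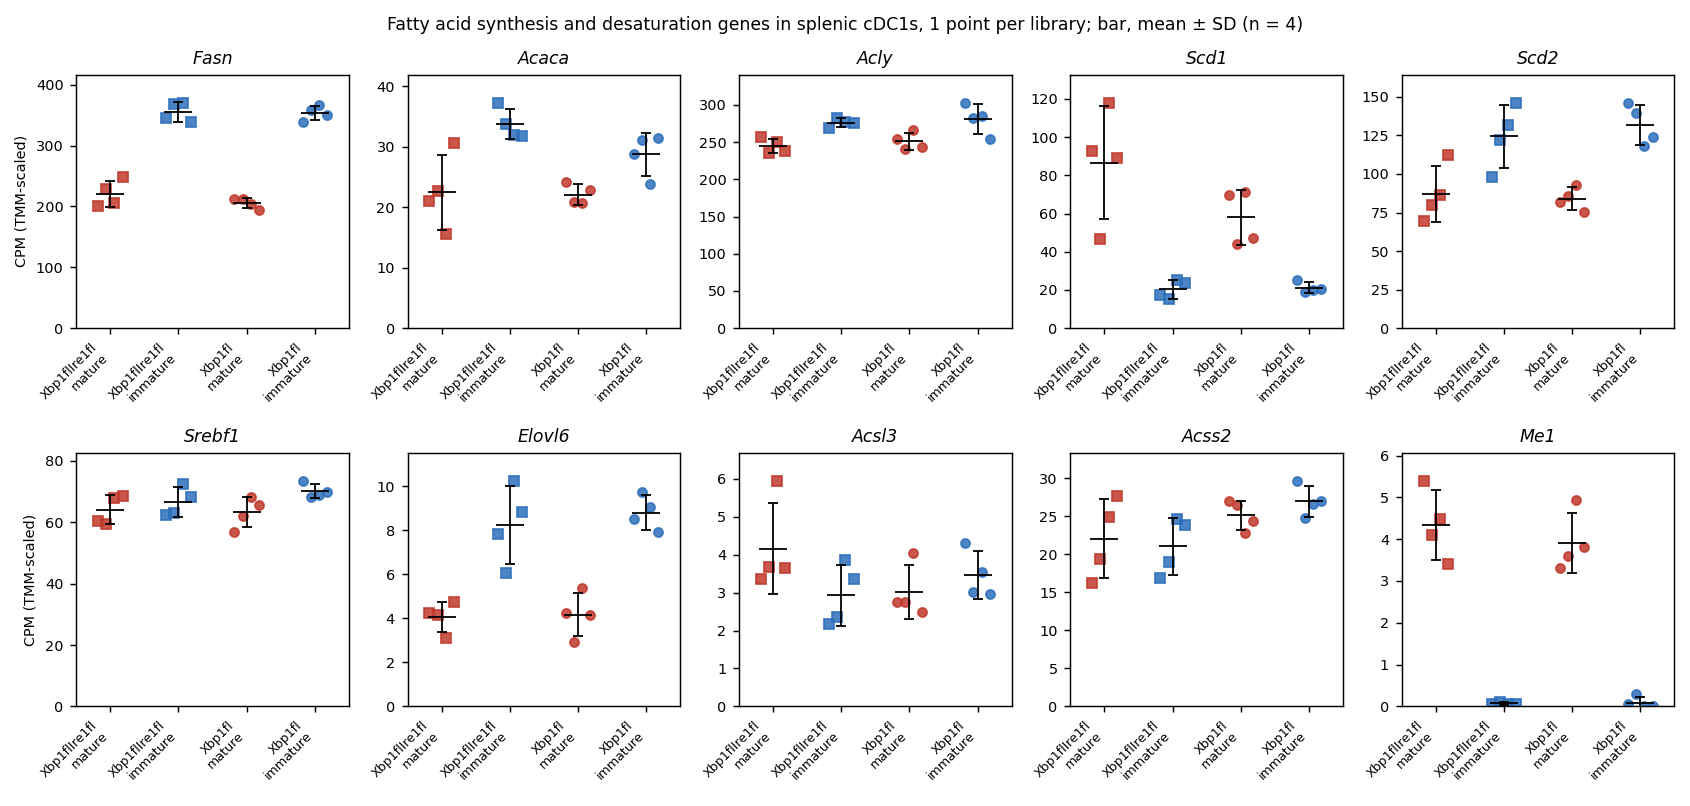
CPM (TMM-scaled, linear axis from 0) of each gene in the 16 libraries, with squares for Xbp1flIre1fl, circles for Xbp1fl, red for mature and blue for immature cells, and the mean ± SD of each group (n = 4) in black. Fasn and Elovl6 sit lower and Scd1 and Me1 higher in every mature library, while the Srebf1, Acsl3 and Acss2 libraries of the 2 stages overlap.

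Fasn, which carries out all steps of palmitate synthesis on 1 polypeptide, lies on chromosome 11 (120805846 to 120824547, minus strand, GRCm38). It was at 201, 228, 205 and 248 CPM in mature and 345, 369, 371 and 339 CPM in immature Xbp1flIre1fl libraries. In Xbp1fl mice it was at 212, 212, 204 and 194 CPM in mature and 339, 359, 367 and 351 CPM in immature libraries. The highest mature library stayed well below the lowest immature one, and the spread was small in both stages. Fasn fell 1.67-fold (log2 fold change −0.74 ± 0.05 SE, adjusted p = 4.68e-10), to 213 ± 17.2 CPM in mature cells against 355 ± 13.2 CPM in immature cells (SD, n = 8 each).

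Among the mature libraries, Fasn was highest in replicates 4 and 2 of Xbp1flIre1fl, with 248 and 228 CPM. Ccr7 was at its lowest mature values in the same libraries, 4988 and 6574 CPM. Over the 8 mature libraries the Pearson correlation of log2 Fasn with log2 Ccr7 was −0.886, and over the 8 immature ones 0.308. These are descriptions of libraries that share their scaling. Taken as deviations from the 4 group means, the correlation of Fasn with Ccr7 was −0.424 over 16 libraries. Acaca with Ccr7 was at −0.829 over the mature libraries. By deviations from the 4 group means, the 3 genes most like Fasn among 9179 with a mean of at least 5 CPM were 2610507B11Rik (Pearson r = 0.941 over 16 libraries), Ampd3, an AMP deaminase (0.903), and Sdhc, a subunit of succinate dehydrogenase (0.894). All 3 were also lower in mature cells, with log2 fold changes of −0.40, −0.59 and −0.34.

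Acaca, whose product malonyl-CoA is the first committed step of the pathway (chromosome 11, 84129672 to 84401651, plus strand), was at 15.5 to 30.6 CPM in mature libraries (median 21.8) and 23.8 to 37.2 CPM in immature libraries (median 31.6). The ranges overlap, since mature Xbp1flIre1fl replicate 4 (30.6 CPM) lay above the lowest immature library. In 8 of 8 pairs of same-numbered libraries of a genotype the mature one was lower, as it was for Acly and Scd2. Acaca fell (log2 fold change −0.48 ± 0.10, adjusted p = 4.88e-04). Within Xbp1fl mice alone the change was −0.38 ± 0.15 (adjusted p = 0.0336), and it no longer passed without any 1 of mature replicates 2, 3 or 4 or immature replicates 1, 2 or 4 of that genotype (adjusted p of 0.0513 to 0.0862). Acacb, the isoform that controls mitochondrial fatty acid oxidation, was too low to test, with 17 counts over the 8 mature and 13 over the 8 immature libraries.

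Acly (chromosome 11, 100476353 to 100528000, minus strand) was the gene with the highest level per length of the 10 in both stages. It was at 236 to 266 CPM in mature (median 246) and 254 to 303 CPM in immature libraries (median 280). The ranges overlap, as the highest mature library lies above the lowest immature one. Its fall was the smallest among those that passed (log2 fold change −0.17 ± 0.04, adjusted p = 2.47e-03). Within a genotype its call was lost without single libraries, though the fold stayed negative: over these fits it was −0.21 to −0.126 within Xbp1fl and −0.196 to −0.156 within Xbp1flIre1fl. The highest adjusted p was 0.103 within Xbp1fl, without immature replicate 1, and 0.0601 within Xbp1flIre1fl, without immature replicate 2. With same-numbered libraries paired, Acly passed within both genotypes (adjusted p of 0.0231 within Xbp1flIre1fl and 0.0313 within Xbp1fl). Acss2, which activates acetate (chromosome 2, 155517948 to 155585724, plus strand), was at 16.2 to 27.7 CPM in mature (median 24.6) and 16.8 to 29.6 CPM in immature libraries (median 24.7). These ranges nearly coincide, and the log2 fold change was −0.02 ± 0.10 (95% interval −0.24 to 0.20; adjusted p = 0.889).

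Me1, the cytosolic malic enzyme that yields NADPH (chromosome 9, 86581371 to 86695953, minus strand), differed most between the stages of the 10. It was at 5.39, 4.09, 4.47 and 3.40 CPM in mature and 0.0621, 0.112, 0.0575 and 0.0558 CPM in immature Xbp1flIre1fl libraries. In Xbp1fl mice it was at 3.30, 3.60, 4.95 and 3.82 CPM in mature and 0.0567, 0.291, 0 and 0 CPM in immature libraries. Every mature library held 43 to 80 counts, and of the immature ones only Xbp1fl replicate 2, with 5 counts, held more than 2. The sums were 477 counts in mature and 11 in immature libraries, a ratio of 52.6 after scaling (95% exact interval 29.1 to 106, counting error only). The fitted log2 fold change was 5.58 ± 0.35 (adjusted p = 2.87e-10), and it depends on the prior count at so few immature counts. Without Xbp1fl immature replicate 2 it was 6.485, and 7.21 within Xbp1fl. Among adipocyte markers, Adipoq (adiponectin), also had few counts in immature cells, 72 in mature and 1 in immature libraries, while Lep, Cfd and Adrb3 were at 0 in all libraries and Plin1 and Cidec had 1 count each.

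Elovl6, which extends palmitate to stearate (chromosome 3, 129532355 to 129638495, plus strand), was at 2.95 to 5.36 CPM in mature libraries (median 4.195) and 6.05 to 10.2 CPM in immature libraries (median 8.66). No mature library reached the lowest immature one. Elovl6 fell 2.06-fold (log2 fold change −1.05 ± 0.13, adjusted p = 2.07e-06), on 40 to 78 counts per mature library and 108 to 178 per immature library.

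The stearoyl-CoA desaturases Scd1 and Scd2 place the same double bond in stearate and palmitate, and they moved in opposite directions. They lie close together on chromosome 19, Scd1 at 44394455 to 44407879 (minus strand) and Scd2 at 44293674 to 44306864 (plus strand). Scd4 lies between them, at 44333092 to 44346743, and Scd3 on the other side of Scd2. Their transcripts share exact stretches, so that reads inside them cannot be assigned to 1 gene, and how the authors counted such reads is not given in the sources used here. Of the 50-base windows along Scd1, 3.03% also occur in Scd2, 3.49% in Scd3 and 1.76% in Scd4, with longest runs of 147, 185 and 116 bases. The longest run common to Scd1 and Scd2, 147 bases in the coding part (bases 823 to 969 of the Scd1 transcript of GENCODE vM21, GRCm38), is shown as the longest stretch in which reads of these 2 oppositely changed genes are alike.
Scd1 and Scd2 common run, chromosome 19: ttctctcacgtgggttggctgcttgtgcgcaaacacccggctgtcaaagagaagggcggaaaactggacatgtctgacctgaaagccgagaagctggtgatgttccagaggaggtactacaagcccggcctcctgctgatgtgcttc

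Scd2, the isoform known from brain and immune cells, was at 69.8 to 113 CPM in mature libraries (median 83.9) and 98.0 to 146 CPM in immature libraries (median 128). Only 1 immature library, Xbp1flIre1fl replicate 1 (98.0 CPM), lay inside the mature range. Scd2 fell (log2 fold change −0.58 ± 0.10, adjusted p = 4.14e-05).

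Scd1 was at 92.9, 46.5, 118 and 89.1 CPM in mature and 17.1, 15.1, 25.2 and 23.7 CPM in immature Xbp1flIre1fl libraries. In Xbp1fl mice it was at 69.6, 44.2, 71.3 and 47.1 CPM in mature and 25.4, 18.7, 20.0 and 20.7 CPM in immature libraries. All mature values exceed all immature ones, but they spread widely, with a coefficient of variation of 36.6% in mature against 18.1% in immature cells. Scd1 rose (log2 fold change 1.77 ± 0.18, adjusted p = 5.94e-07), to 72.4 ± 26.4 CPM in mature cells against 20.7 ± 3.76 CPM in immature cells (SD, n = 8 each). Relative to Scd2 in the same library, Scd1 counts were at 0.516 to 1.37 (median 0.779) in mature and 0.124 to 0.191 (median 0.168) in immature cells, with an exact two-sided permutation p of 0.000155 over 12870 arrangements, the smallest they can give, and 0.00031 adjusted over the 4 ratios computed. These arrangements exchange stages over all 16 libraries and keep neither genotype nor replicate number.

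The level of Scd1 followed that of B cell markers from library to library (Pearson r of deviations with their sum 0.933). It followed less closely that of cDC2 markers (0.739), plasma cell markers (0.441) and macrophage markers (0.433). Over the 8 mature libraries alone these were 0.973 for B cell, 0.913 for cDC2, 0.575 for plasma cell and 0.907 for macrophage markers. The deviations of the B cell and cDC2 sums themselves correlated at 0.762. By deviations from the group means, the genes most like Scd1 among 9179 were Cd79a (Pearson r = 0.952 over 16 libraries) and Cd79b (0.951), the signalling chains of the B cell receptor. All 10 B cell markers were higher in mature cells. Their sum was at 777, 362, 1088 and 727 CPM in mature Xbp1flIre1fl libraries and 560, 406, 683 and 328 CPM in mature Xbp1fl libraries, in the order of the Scd1 values above. In immature libraries it was at 126 to 187 CPM. Of the marker genes, Ms4a1 (CD20) averaged 171 CPM in mature and 43.8 CPM in immature cells, and Blk, a B cell kinase, averaged 18.8 CPM in mature and 2.54 CPM in immature cells.

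Scd1 divided by this sum was at 0.104 to 0.144 (median 0.121) in mature libraries and 0.116 to 0.165 (median 0.136) in immature libraries. On this scale the stages overlap and Scd1 was no longer higher in mature cells but 0.865 times the immature level (log2 difference −0.21, exact two-sided permutation p = 0.0155, also 0.0155 adjusted over the 4 ratios). The outcome depends on the marker: divided by each of the 10 alone, Scd1 overlapped between the stages for 7, was lower in every mature library for 2 (Cd79b and Blk), and was higher in every mature library for 1, Cd22 (1.10 to 1.96 in mature against 0.509 to 1.03 in immature cells). With log2 of the B cell sum as a covariate in the model, the log2 fold change of Scd1 was 0.11 ± 0.19 (adjusted p = 0.792). The same covariate left Me1 at 5.31 ± 0.69 (adjusted p = 7.09e-05) and Fasn at −0.65 ± 0.13 (adjusted p = 3.89e-03). The B cell sums of the stages do not overlap, so in this fit 1077 of 11978 genes passed in place of 8095. Both the ratio and the covariate were chosen after the likeness had been seen, and whether B cells in the sorted fraction contributed Scd1 RNA was not tested further.

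**Figure D2:**
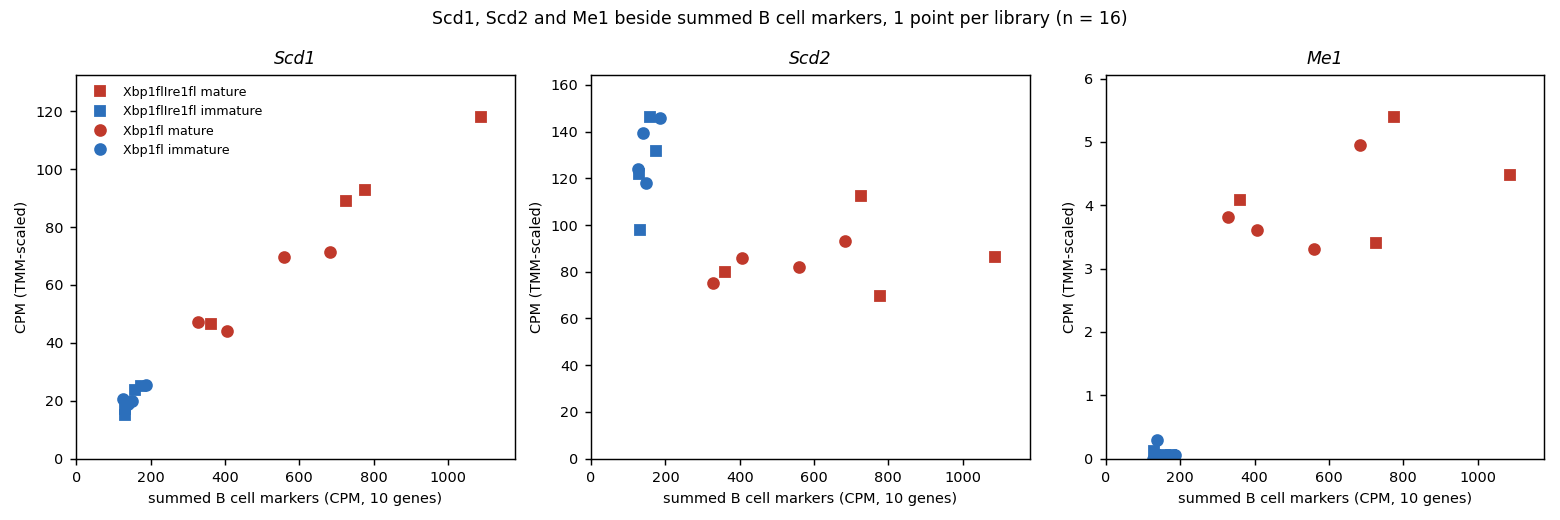
CPM (TMM-scaled) of Scd1, Scd2 and Me1 against the summed CPM of 10 B cell markers, 1 point per library, with squares for Xbp1flIre1fl, circles for Xbp1fl, red for mature and blue for immature cells. Scd1 rises with the marker sum within both stages (Pearson r of log2 values 0.973 over mature and 0.837 over immature libraries). Me1 lies between 3.30 and 5.39 CPM over mature sums of 328 to 1088 CPM, and the Scd2 values of mature libraries lie mostly below those of immature ones.

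Of the other cell types whose markers were counted, higher against lower in mature cells was 3 to 1 of 5 for plasma cells, 4 to 0 of 8 for cDC2s, 5 to 0 of 7 for T cells, 0 to 1 of 6 for NK cells, 1 to 1 of 5 for neutrophils, 1 to 1 of 6 for plasmacytoid dendritic cells and 0 to 0 of 3 for erythroid cells. Their part in the results was not tested. Macrophage markers also differed: 7 of 11 were higher and 1 lower in mature cells, with sums of 720 to 1208 CPM in mature and 381 to 804 CPM in immature cells. Vcam1, an adhesion molecule of splenic macrophages, averaged 348 CPM in mature and 80.5 CPM in immature cells. With the macrophage sum as a covariate Scd1 remained higher (log2 fold change 1.19 ± 0.38, adjusted p = 0.0289). Under that covariate Acly no longer passed (−0.12 ± 0.09, adjusted p = 0.333), and under the B cell covariate Acaca did not (−0.13 ± 0.29, adjusted p = 0.851). Without a covariate Acly was at −0.17 ± 0.04. The macrophage covariate lowered the number of all genes that passed from 8095 to 3581 of 11978, so losing a call was common.

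Acsl3, which couples free fatty acids to CoA at lipid droplets and the endoplasmic reticulum (chromosome 1, 78657825 to 78707743, plus strand), was at 3.37, 3.68, 5.94 and 3.66 CPM in mature and 2.17, 2.35, 3.85 and 3.35 CPM in immature Xbp1flIre1fl libraries. In Xbp1fl mice it was at 2.77, 2.75, 4.05 and 2.50 CPM in mature and 4.31, 3.03, 3.54 and 2.96 CPM in immature libraries. The stages overlap in both genotypes, and the highest library, mature Xbp1flIre1fl replicate 3, was also the one with the highest B cell sum. Over both genotypes the log2 fold change was 0.15 ± 0.17 (95% interval −0.21 to 0.51; adjusted p = 0.451). With the B cell covariate it was −0.90 ± 0.38 (adjusted p = 0.175). Within Xbp1flIre1fl the change of 0.50 ± 0.24 (adjusted p = 0.0922) passed when libraries with the same genotype and number were paired (0.50 ± 0.20, adjusted p = 0.0427), and also without immature replicate 3 of that genotype (0.65 ± 0.26, adjusted p = 0.0443).

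Srebf1, the source of the SREBP-1 factors (chromosome 11, 60199089 to 60222581, minus strand), was at 56.9 to 68.6 CPM in mature libraries (median 63.8) and 62.5 to 73.4 CPM in immature libraries (median 68.6). The 2 ranges share the stretch from 62.5 to 68.6 CPM. The log2 fold change was −0.10 ± 0.05 (95% interval −0.21 to 0.01; adjusted p = 0.0917), and it passed as lower with upper quartile scaling (−0.22, adjusted p = 8.9e-04) and with library sizes alone (−0.33, adjusted p = 4.91e-05). Counts per gene do not part the SREBP-1a and SREBP-1c transcripts, which start at different promoters. Srebf2, whose product drives cholesterol synthesis, was higher, at 484 CPM in mature against 395 CPM in immature cells (log2 fold change 0.29 ± 0.08, adjusted p = 3.81e-03), but it did not pass with upper quartile scaling (0.17, adjusted p = 0.056) or library sizes alone (0.065, adjusted p = 0.398). The count ratio of Srebf1 to Srebf2 was 0.112 to 0.175 in mature cells, against 0.151 to 0.207 in immature cells (exact two-sided permutation p = 0.00295, and 0.00393 adjusted over the 4 ratios). The genes most like Srebf1 by deviations were Cox15 (Pearson r = 0.84 over 16 libraries), Orai3 (0.815) and Mlst8 (0.811), none of which passed between the stages.

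**Figure D3:**
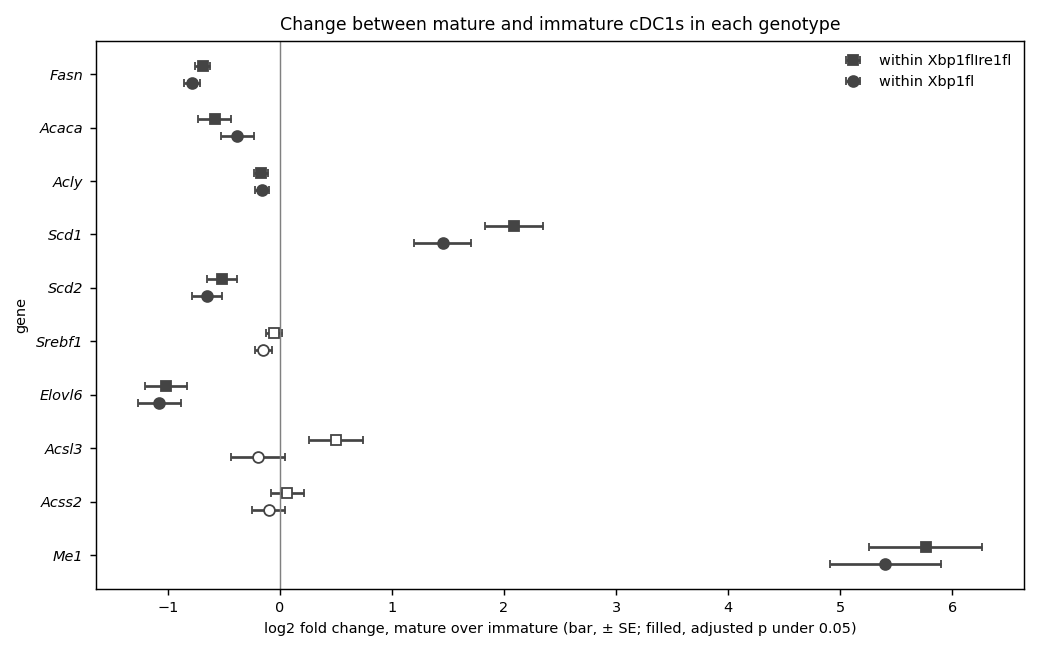
Log2 fold change of mature over immature cells for each gene within Xbp1flIre1fl (squares) and within Xbp1fl (circles), with bars of ± 1 SE, filled where the adjusted p is under 0.05. The 2 genotypes share the called direction for the 7 called genes, and their Scd1 values are 2.09 and 1.45.

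Set side by side, the genotypes gave the same split of 2 higher, 5 lower and 3 not passed, where 53.5% of all genes passed within Xbp1flIre1fl (27.4% higher and 26.1% lower) and 56.8% within Xbp1fl (28.4% higher and 28.3% lower). Scd1 changed by 2.09 ± 0.26 within Xbp1flIre1fl and by 1.45 ± 0.26 within Xbp1fl, and Fasn by −0.69 ± 0.07 within Xbp1flIre1fl and −0.78 ± 0.07 within Xbp1fl. A test of the difference between these changes called none of the 10 (0% of all genes called in the quasi-likelihood test, with 329 of 11978 at an unadjusted p under 0.05, and 0 also with DESeq2 and limma voom). The largest differences were 0.69 ± 0.34 for Acsl3 (95% interval −0.03 to 1.42, unadjusted p = 0.0592) and 0.64 ± 0.36 for Scd1 (−0.12 to 1.40, unadjusted p = 0.0944), both with an adjusted p of 1. Between genotypes within a stage none of the 10 passed, where 0.142% of all genes did in mature and 0.134% in immature cells. The nearest were Scd1 in mature cells, with a log2 fold change of Xbp1flIre1fl over Xbp1fl of 0.58 ± 0.25 (adjusted p = 0.725), and Acss2 in immature cells (−0.36 ± 0.14, adjusted p = 0.97).

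Levels between genes were compared as CPM per kb of annotated exons. In mature cells the order was Acly (47.0 ± 1.98), Fasn (19.5 ± 1.57), Scd2 (15.7 ± 2.38), Scd1 (14.8 ± 5.41), Srebf1 (11.3 ± 0.80), Acss2 (2.32 ± 0.39), Acaca (1.30 ± 0.25), Me1 (1.07 ± 0.20), Acsl3 (0.82 ± 0.25) and Elovl6 (0.64 ± 0.12) CPM per kb (SD, n = 8). Acly stood clear of Fasn, and Srebf1 of Acss2, while every other pair of neighbours overlapped in range. In immature cells the order was Acly (52.8 ± 2.68), Fasn (32.4 ± 1.21), Scd2 (23.4 ± 2.98), Srebf1 (12.1 ± 0.70), Scd1 (4.24 ± 0.77), Acss2 (2.36 ± 0.41), Acaca (1.83 ± 0.23), Elovl6 (1.32 ± 0.20), Acsl3 (0.73 ± 0.17) and Me1 (0.021 ± 0.024) CPM per kb. There the ranges overlapped only for Acss2 with Acaca, Elovl6 with Acaca and Elovl6 with Acsl3. With the longest transcript as the length, Acss2 came before Scd1 by mean in immature cells (6.65 against 4.29 CPM per kb), and their ranges overlapped.

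Within groups, the 10 genes varied together only in part. Of 45 pairs, the Pearson correlation of deviations over 16 libraries had a median of 0.212, exceeded 0.5 for 8 pairs and was below −0.5 for 1, as a description of values that share library and scaling. Scd2 with Acss2 came first (0.767), then Srebf1 with Acsl3 (0.695) and Scd1 with Acsl3 (0.676). Acaca with Acsl3 was the negative pair (−0.597). Fasn and Srebf1 hardly varied together (−0.016). These values are for TMM scaling and depend on it in part. With library sizes alone, Scd2 with Acss2 stayed first (0.812), but Scd2 with Srebf1 came next (0.763). Acaca with Acsl3 was then at −0.481, and Fasn with Srebf1 at 0.314. Beside Scd1 (0.933), Acsl3 (0.692) and Acly (0.637) followed the B cell sum, and Me1 (0.095) and Elovl6 (0.158) did so least among positive values.

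**Figure D4:**
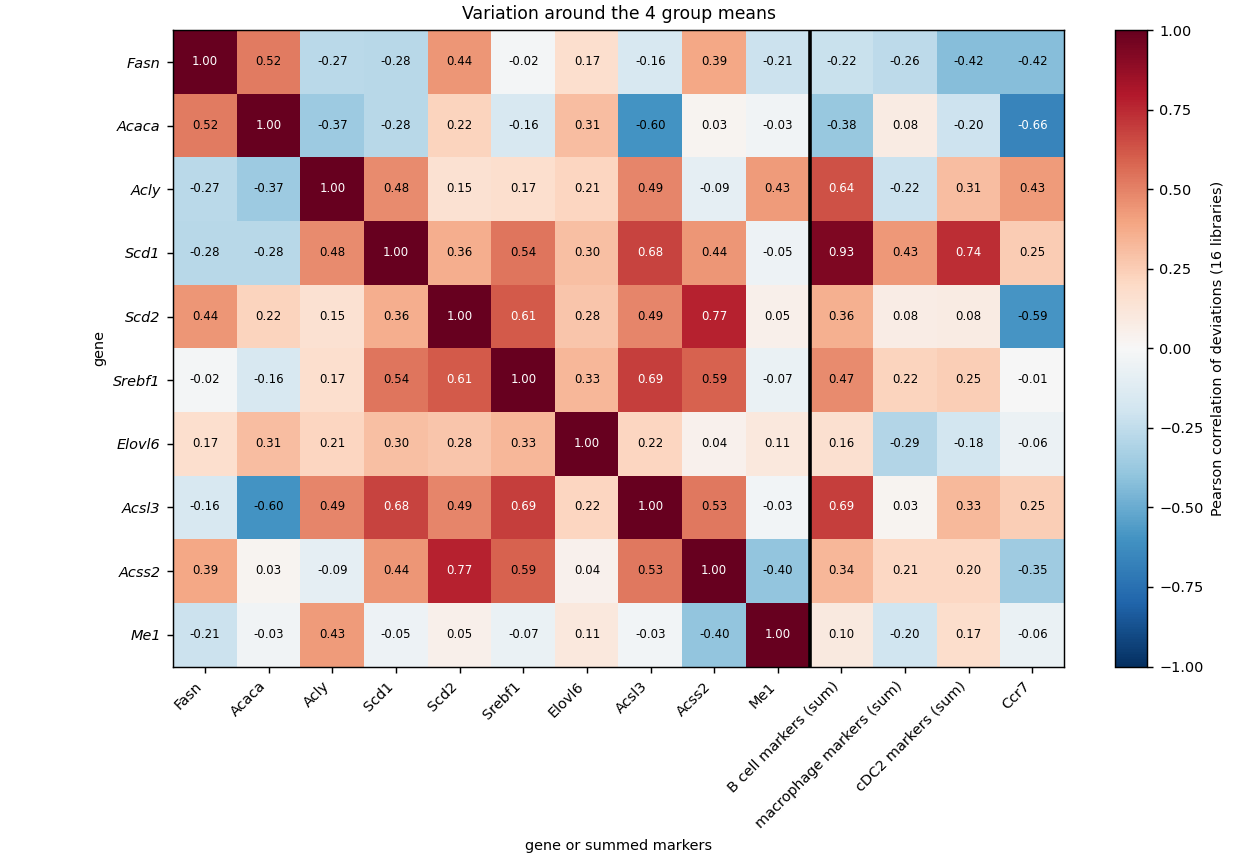
Pearson correlation over 16 libraries of deviations of log2 CPM from the 4 group means, between the 10 genes and, right of the black line, with the summed markers of B cells, macrophages and cDC2s and with Ccr7. The darkest cell off the diagonal is Scd1 with B cell markers (0.933).

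The other genes of the pathway are given from lists chosen with earlier results of these data known, and directions refer to mature cells. Of 5 tested genes of acetyl- and malonyl-CoA supply, 1 was higher, 2 lower and 2 not called (the median of their log2 fold changes was 0.07, and −0.06 with upper quartile and −0.16 with library size scaling). The mitochondrial acetate enzyme Acss1 fell to 35.8 CPM against 71.4 CPM in immature cells (−1.0 ± 0.07, adjusted p = 1.22e-09), malonyl-CoA decarboxylase Mlycd fell (−0.21 ± 0.07), and Mid1ip1, which helps acetyl-CoA carboxylase to polymerise, rose (0.29 ± 0.09). The citrate carrier Slc25a1 did not pass (0.07 ± 0.05, adjusted p = 0.279). Of 7 NADPH genes 1 was higher, 4 lower and 2 not passed (median −0.17). Idh1, the cytosolic isocitrate dehydrogenase, was the one that rose, to 225 ± 57.0 CPM against 35.1 CPM in immature cells (2.68 ± 0.15, adjusted p = 3.48e-10). The pentose phosphate enzymes Tkt and Taldo1 fell, with log2 fold changes of −0.38 and −0.60.

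Of 9 tested elongases and elongation enzymes other than Elovl6, 2 were higher, 5 lower and 2 not passed (median −0.19). Elovl7 rose at a low level, to 2.40 CPM against 0.368 CPM in immature cells (2.67 ± 0.28, adjusted p = 2.13e-07), and the dehydratase Hacd3 (−0.58 ± 0.07) and the reductase Hsd17b12 (−0.36 ± 0.06) fell. Of 5 tested desaturases besides Scd1 and Scd2, 4 were lower and none higher (median −0.64). Scd4 fell to 5.03 CPM against 9.52 CPM in immature cells (−0.92 ± 0.12, adjusted p = 2.85e-06), and Fads1, which makes polyunsaturated chains, fell (−0.40 ± 0.06), as did Fads3 (−0.74 ± 0.26) and Scd3 (−0.64 ± 0.26). Scd3 shares 4.85% of its 50-base windows with Scd1 and 3.95% with Scd2, and Scd4 shares 2.58% with Scd1 and 1.87% with Scd2, so their values are uncertain. Scd1 was thus the only 1 of 7 tested desaturase genes called higher, and it did not pass with the B cell covariate. Of 7 other acyl-CoA synthetases 3 were higher, 1 lower and 3 not passed, with Acsl1 (0.46 ± 0.08) and Acsl4 (0.31 ± 0.06) higher and Acsl5 lower (−0.46 ± 0.05). Of 6 tested genes of mitochondrial fatty acid synthesis 1 was higher and 3 lower, led by the enoyl reductase Mecr (−0.79 ± 0.09), the acyl carrier protein Ndufab1 (−0.45 ± 0.07) and Acsf3 (0.28 ± 0.08).

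Of 8 genes that control SREBP processing 3 were higher, 3 lower and 2 not passed (median −0.04), and none was called higher with upper quartile or library size scaling. The escort protein Scap fell (−0.28 ± 0.04, adjusted p = 2.06e-05), as did the retention protein Insig2 (−0.19 ± 0.06), and Insig1 rose (0.42 ± 0.14, adjusted p = 0.0146). Of 12 tested lipogenic transcription factors 5 were higher, 2 lower and 5 not passed (median 0.13, and −0.10 with library sizes alone). Nr1h3 (LXR alpha) rose to 7.0 CPM against 3.11 CPM in immature cells (1.16 ± 0.19, adjusted p = 3.94e-05), Nr1h2 (LXR beta) rose to 146 CPM against 125 CPM in immature cells (0.23 ± 0.04), the CCAAT-binding subunit Nfya rose (0.72 ± 0.11), and Mlx fell (−0.24 ± 0.04). Mlxipl, which encodes ChREBP, was too low to test, with 2 counts in mature and 1 in immature libraries. Of 6 subunits and kinases of AMPK, which inhibits acetyl-CoA carboxylase, none was higher and 2 were lower, Prkag2 (−0.45 ± 0.08) and Prkab2 (−0.23 ± 0.08), with Stk11 at −0.37 ± 0.18 (adjusted p = 0.0799). With either of the other 2 scalings all 6 were called lower, where 38% (upper quartiles) and 30.8% (library sizes alone) of all called genes were higher.

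Of 12 tested genes of glycerolipid synthesis 3 were higher, 6 lower and 3 not passed (median −0.18), with Agpat1 (0.40 ± 0.05) and Agpat9, an older symbol of Gpat3 (2.19 ± 0.33, at 2.05 CPM against 0.576 CPM in immature cells), higher and Agpat5 lower (−0.71 ± 0.09). Of 16 tested fatty acid oxidation genes 4 were higher, 5 lower and 7 not passed (median −0.06), against 2 higher and 9 lower with upper quartile scaling and 0 higher and 10 lower with library sizes alone, with Acaa2 (−0.66 ± 0.07) and Eci1 (−0.51 ± 0.06) lower and Acadvl (0.34 ± 0.05) higher. Of 4 tested genes of fatty acid uptake and binding 2 were higher and 2 not passed. Fabp5, a cytosolic fatty acid carrier, rose to 44.3 CPM against 3.81 CPM in immature cells (3.54 ± 0.21, adjusted p = 1.05e-09), and the lipid receptor Cd36 did not pass (−0.13 ± 0.06, adjusted p = 0.0753).

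Other lists shifted likewise with library sizes alone, where 30.8% of all called genes were higher, against 49.4% with TMM scaling. Higher against lower was then 1 to 6 for the elongases, 2 to 2 for the acyl-CoA synthetases, 0 to 3 for mitochondrial fatty acid synthesis, 4 to 6 for the transcription factors, 2 to 9 for glycerolipid synthesis, 12 to 5 for cholesterol synthesis and 5 to 1 for the efflux genes. Of the genes named, Mid1ip1, Insig1 and Acsf3 lost their call with upper quartile scaling and with library sizes alone, and Acsl4, Acadvl and Nr1h2 with library sizes alone. Cd36 and Stk11 were called lower under both scalings, and Slc25a1 turned negative under both (−0.056 and −0.16) and was called lower with library sizes alone.

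Genes of cholesterol synthesis and efflux, which are known to answer to SREBP-2 and the LXRs, were mostly higher in mature cells. Of 20 cholesterol synthesis genes 14 were higher, 2 lower and 4 not passed (median 0.70), with Idi1 (1.94 ± 0.17) and Sc5d (1.13 ± 0.12) among the first by adjusted p. Of 6 LXR targets of lipid efflux and transport 5 were higher and none lower (median 1.64), with Abcg1 (2.28 ± 0.10), Arl4c (2.02 ± 0.11) and Apoe (1.60 ± 0.10) first. With the B cell covariate 0 of the 20 cholesterol genes were higher and 2 lower, and 4 of the 6 efflux genes were higher, so the markers' part in the cholesterol result cannot be told apart from the stage.

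**Figure D5:**
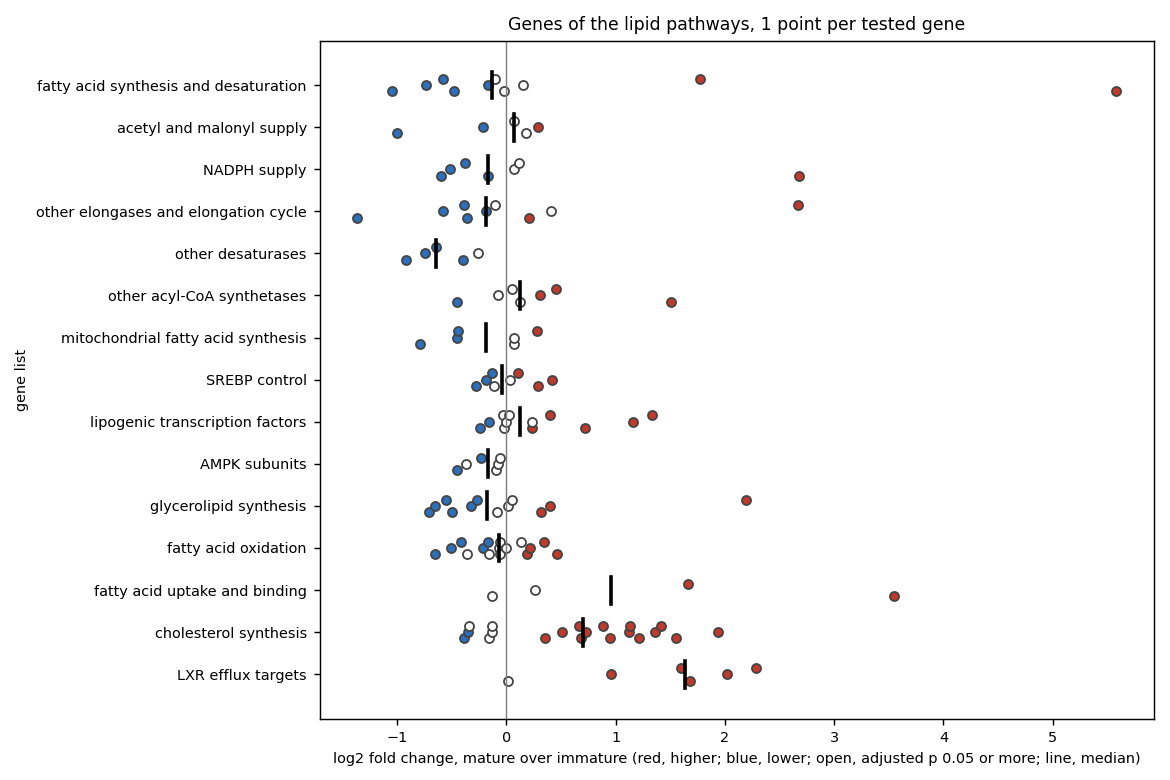
Log2 fold change of mature over immature cells (TMM scaling) for each tested gene of 15 lists, red where called higher, blue where called lower and open where the adjusted p was 0.05 or more, with a black line at each list's median. The medians of cholesterol synthesis (0.70) and LXR efflux targets (1.64) lie right of 0, and that of the other desaturases (−0.64) left of it.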

How the data were processed

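RNA was sequenced from 16 libraries of sorted cDC1s. The submitters' processing notes name TopHat2 2.1.0, SAMtools 0.1.19, Trimmomatic 0.35, FastQC 0.11.4 and limma 3.42.2, with the build mm10. The read counter, the annotation and the strandedness are not given in the sources used here. Raw counts per gene symbol, as deposited by the authors for 24421 genes, were analysed. The authors' deposited log2 values for 11843 genes matched log2 CPM up to an offset per library (residual SD no higher than 0.029) and served as an alternative.

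Counts were filtered with filterByExpr, scaled by TMM and tested with edgeR 4.0.16 in R 4.3.3 (robust quasi-likelihood, 1 mean per group, 12 residual degrees of freedom), with Benjamini-Hochberg adjustment over 11978 genes. limma 3.58.1 and DESeq2 1.42.0 were alternatives. The script was tested on simulated data. An SE is |log2 fold change| over the root of F, and intervals of counts cover counting error only. Correlations used log2 CPM with a prior count of 2. Positions are from GENCODE vM21 (GRCm38). The 10 genes, the lists and the naming rule (the 3 smallest adjusted p per list, 2 for other cell types, with 10 regulators and paralogs) were chosen with earlier results of these data known. A few genes that this rule names, and 1 of the 4 count ratios, are not reported here.

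Since no label ties a library to its own mouse, p-values measure spread between libraries, which may be technical. No pair of libraries within a group agreed within sampling noise. Same-numbered mature and immature libraries of a genotype deviated together (correlations of 0.29 to 0.604, 8 of 8 pairs), so the numbers pair them, and fits with this pairing were alternatives, beside other scalings, filters, tests, libraries left out and marker covariates. The permutation tests of ratios did not keep this pairing, and their p-values treat the libraries as exchangeable.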

Additional observations from a re-analysis of the deposited data

Results flagged for a closer look

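In 40 groups of 4 libraries, 1 for each gene and group, 2 held a library far from the other 3 by Dixon's test, which chance would give in about 1 in 20 groups. Acsl3 was at 5.941 CPM in mature Xbp1flIre1fl replicate 3, against 3.37 to 3.68 CPM in the others, and that library also had the highest B cell marker sum (1088 CPM). Me1 was at 0.1121 CPM in immature Xbp1flIre1fl replicate 2, against 0.0558 to 0.0621 CPM in the others, which is 2 counts against 1 count each.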

How the results depend on the processing

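Between the stages, all 7 called genes kept their call under the 28 alternatives that changed scaling, filter, test, table or libraries. The 2 covariates added after seeing the data ended calls: with the B cell marker sum Scd1 (0.11) and Acaca (−0.13), and with the macrophage marker sum Acly (−0.12). The count of genes higher was then 1 with the B cell sum, also 1 within each genotype, and within Xbp1flIre1fl 1 with the macrophage sum. The count lower was 1 within Xbp1flIre1fl with either covariate and 3 within Xbp1fl with the macrophage sum. Calls fell over all genes too. Between the stages 1077 of 11978 genes passed with the B cell sum and 3581 with the macrophage sum, in place of 8095. Leaving out single libraries gave 3 to 5 lower within Xbp1fl, 3 without mature replicate 2 or 4 or immature replicate 1 or 2. Acaca within Xbp1fl did not pass with limma on the authors' deposited log2 values (−0.36, adjusted p = 0.0628). Acly lost its call within Xbp1fl with DESeq2 size factors (adjusted p = 0.0636) and with the 8 libraries of that genotype alone (0.0503), and within Xbp1flIre1fl without 2 mature libraries (0.123). Srebf1 passed as lower with upper quartile scaling (−0.22) and library sizes alone (−0.33). Acsl3 turned negative with library sizes alone (−0.079) and with the B cell covariate (−0.90), and Acss2 ranged over −0.085 to 0.043 when single libraries were left out. The replicate block by genotype and number gave 2 higher and 5 lower genes between the stages and changed no call but that of Acsl3 within Xbp1flIre1fl; a block by number alone changed none. The causes were not tested. Low counts limit Me1 in immature cells, Acsl3 and Elovl6.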
